A study of Mus musculus with 6 samples.

Results

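The genes examined here code for the enzymes that make fatty acids from acetyl-CoA in liver, together with a protein and a transcription factor that promote the process. They were chosen by name, with earlier results of these data known, as 10 genes (Acly, Acaca, Acacb, Fasn, Scd1, Elovl6, Me1, Thrsp, Acss2 and Mlxipl). Every probe set that the array annotation assigns to exactly 1 of these symbols was used. This gave 269 probe sets of 9 genes, out of 208397 probe sets of 16277 genes that carry a single symbol. No probe set of Acss2 met the rule, because all 19 that list it also list Myh7b. Liver RNA was hybridised to 6 Affymetrix mouse exon arrays. There were 3 arrays from mice lacking the splicing factor SRSF3 in hepatocytes (SRSF3HKO) and 3 from wild-type mice (WT), which the series title calls littermates. All mice were untreated and 1 month old. The labels give neither the sex of the mice, nor the promoter that drives the deletion, nor the deleted part of Srsf3.

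De novo lipogenesis turns surplus carbohydrate into fat. Citrate leaves the mitochondria and is split into acetyl-CoA, which is carboxylated to malonyl-CoA and then joined stepwise into palmitate with electrons from NADPH. Elongation and desaturation yield stearate and oleate, the fatty acids that are esterified for storage and export. In liver the genes of this pathway are known as shared targets of the transcription factor SREBP-1c, which responds to insulin, and of ChREBP, the product of Mlxipl, which responds to sugar.

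Levels are given as log2(intensity + 16), where the level of a gene is the median over its probe sets. All changes are SRSF3HKO minus WT on that scale, which understates changes of dim genes. A gene was tested where its mean lay above 5.35, a floor set by receptor genes of smell and taste, and was called where the adjusted p of limma's moderated test was under 0.05. Median intensity was 75.3 to 89.6 on the arrays, and the number of arrays limits the precision. The labels do not tie each WT array to its own mouse, and p-values therefore cover only the spread between arrays. Srsf3 itself stood at 9.79, 9.24 and 9.35 on the WT arrays and at 10.30, 9.10 and 9.78 on the SRSF3HKO arrays (log2 change 0.26 ± 0.31 SE, from -0.02 to 0.81 over the alternatives, with no call). The deleted part is not given and the 14 probe sets of Srsf3 were not examined singly, so this median does not check the labels. The 7 measured hepatocyte markers lay above the floor and none was called. However, 4 of the 7 were lower without overlap, against 14% of all genes tested. The 7 had a summed intensity of 57463 to 58278 in WT and 50344 to 56782 in SRSF3HKO. Of 8 measured adipocyte markers, Adipoq, Lep and Cidea had means below the floor in both groups. The 5 tested lay above it and none was called. Their WT means were 12.58 for Pck1 and 5.49 to 6.39 for Retn, Cfd, Fabp4 and Plin1. Pck1 is also a gluconeogenic gene of hepatocytes, so its level cannot be read as adipocyte signal. The 7 macrophage markers summed to 2591 to 2976 in WT and to 18611, 3038 and 3397 in SRSF3HKO replicates 1, 2 and 3, and the 6 cholangiocyte markers to 497 to 710 in WT and to 2988, 1097 and 838. SRSF3HKO replicate 1 thus had the highest sum in both. For cholangiocytes this came from Spp1, at 11.41 in replicate 1 and 9.30 and 9.25 in replicates 2 and 3. Each other measured cholangiocyte marker was highest in replicate 2 or 3, such as Epcam and Krt19 in replicate 2. Among the lipogenic genes, SRSF3HKO replicate 1 was the lowest knockout array for Acaca, Acacb, Fasn, Me1 and Mlxipl. Replicate 2 was the lowest for Acly, Scd1, Elovl6 and Thrsp. Without SRSF3HKO replicate 1 the lipogenic genes had a median change of -1.58, and Acly, Fasn, Scd1 and Elovl6 were called. Of the markers tested, 1 of 7 for macrophages was called higher (Marco, 2.78) and none of 5 for cholangiocytes, 6 for stellate cells or 4 for lymphocytes. Lower calls were made for 1 of 5 endothelial markers (Kdr, -0.87) and 1 of 2 erythroid ones (Alas2, -2.35). Of all genes tested, 5.03% were called lower and 6.85% higher. The part of these cell types in the results below was not tested. In bulk liver, fewer hepatocytes and less RNA per hepatocyte cannot be told apart.

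The lipogenic genes were lower in SRSF3HKO livers as a group, with large differences in size between them. Acly, Fasn, Scd1, Elovl6 and Me1 fell, by log2 changes of -1.06 to -2.54. Thrsp, Acacb, Acaca and Mlxipl also had lower means, with changes of -3.69, -1.35, -0.70 and -0.55, but did not pass the test. Thus 5 of 9 measured genes were called lower and none higher, whereas 5.03% of the 11711 genes tested were called lower and 6.85% higher. The median change was -1.73 over the 9 genes and 0.08 over all genes tested. The SRSF3HKO and WT arrays did not overlap for 6 of the 9, which are the 5 called genes and Acacb, against 14.0% of all genes tested that were lower without overlap. None of the 9 was higher without overlap (21.6% of all genes), and all 9 had a negative change (42.6% of all genes). Between 1 and 6 of the genes were called when a single array was left out, with 1 called without WT replicate 1 and 2 called without WT replicate 2 or 3.

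**Figure D1:**
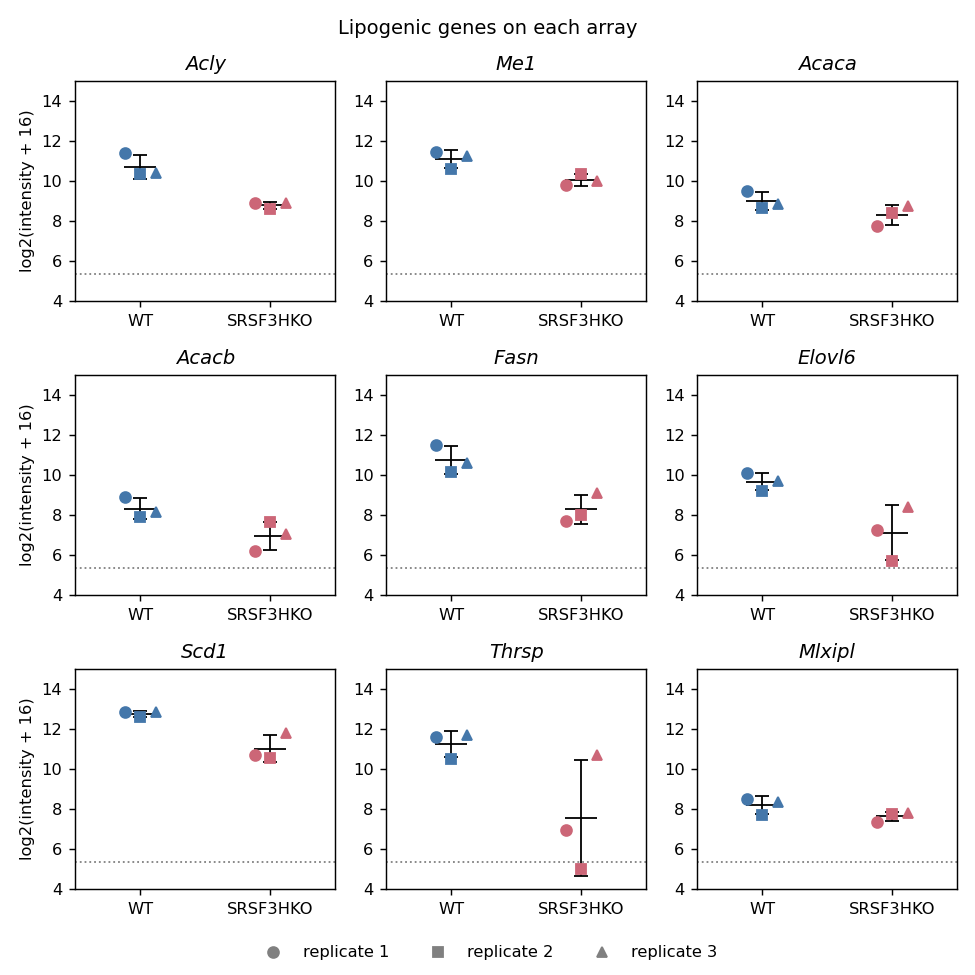
Level of each measured lipogenic gene, as log2(intensity + 16), on the 3 WT arrays (blue) and the 3 SRSF3HKO arrays (red); bars show the mean and SD and the dotted line the detection floor of 5.35. Acly, Acacb, Fasn, Elovl6, Scd1 and Me1 separated by genotype, while Thrsp ranged from 4.97 to 10.71 among the SRSF3HKO arrays; levels of different genes are not comparable.

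**Figure D2:**
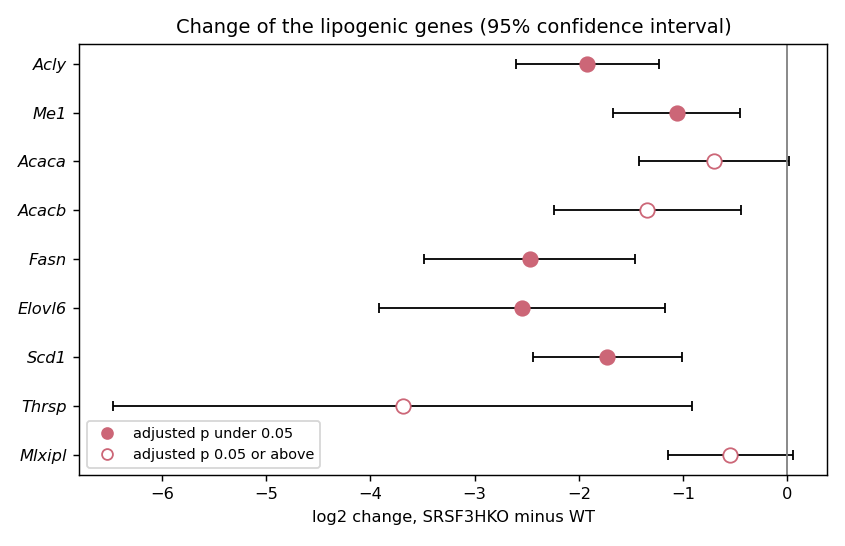
Log2 change of each gene (SRSF3HKO minus WT) with limma's 95% confidence interval, filled where the adjusted p was under 0.05. All 9 changes were negative, and the intervals of Acaca and Mlxipl reached past 0, to 0.02 and 0.06.

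The first step in the cytosol is carried out by ATP citrate lyase, the product of Acly, which splits citrate into acetyl-CoA and oxaloacetate. Acly levels were 11.41, 10.36 and 10.39 on the WT arrays and 8.89, 8.60 and 8.92 on the SRSF3HKO arrays. The groups stood clearly apart, and the knockout arrays lay close together. The fall was 3.78-fold (log2 change -1.92 ± 0.30, limma adjusted p = 0.00846), and it was called in each of the 18 alternative settings tried, with adjusted p from 0.00570 to 0.0359. On the linear scale the intensity was 1775 ± 801 in WT and 432 ± 52.8 in SRSF3HKO (SD, n = 3).

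Malic enzyme, encoded by Me1, supplies NADPH for chain building while it turns malate into pyruvate. Its levels were 11.48, 10.61 and 11.26 in WT and 9.80, 10.36 and 10.01 in SRSF3HKO. The highest knockout array, replicate 2, came close to the lowest WT array, without overlap. Me1 fell 2.09-fold (log2 change -1.06 ± 0.27, limma adjusted p = 0.0388). The call of Me1, like that of Elovl6, held in 12 of 18 alternatives, fewer than those of the other called genes. It was lost with WT replicate 1, 2 or 3 left out (limma adjusted p = 0.154, 0.0509 and 0.133), without SRSF3HKO replicate 1 or 3 (0.0783 and 0.0816) and when the Y-linked signal described below entered the fit (0.0773), within a range of 0.00930 to 0.154 over all settings. The direction was the same in all of them.

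Acetyl-CoA carboxylase commits acetyl-CoA to fat by making malonyl-CoA. Acaca codes for the cytosolic form that feeds synthesis, and Acacb for the form at the mitochondrial surface, whose malonyl-CoA restrains fatty acid oxidation. Acaca levels were 9.50, 8.67 and 8.87 in WT and 7.77, 8.41 and 8.75 in SRSF3HKO. SRSF3HKO replicate 3 lay within the WT range and replicate 2 just below it. The change of -0.70 ± 0.32 was not called (limma adjusted p = 0.182, 95% interval -1.43 to 0.02), nor was it in any of the alternatives.

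Acacb levels were 8.90, 7.91 and 8.13 in WT and 6.22, 7.63 and 7.05 in SRSF3HKO. The groups did not overlap, but the knockout arrays spread widely and replicate 2 lay near the WT arrays. The change was -1.35 ± 0.39 (limma adjusted p = 0.0604, 95% interval -2.24 to -0.45). It was called lower without SRSF3HKO replicate 2 (-1.68, limma adjusted p = 0.0171) and in 2 other of the 18 settings, with array weights and with only genes above the median level. The adjusted p ranged from 0.0161 to 0.203.

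Fatty acid synthase, the product of Fasn, builds palmitate from malonyl-CoA. Fasn levels were 11.52, 10.14 and 10.59 in WT and 7.71, 8.01 and 9.12 in SRSF3HKO. Every knockout array was at least 1 log2 unit below every WT array, with replicate 3 the highest of the knockouts. The fall was 5.55-fold (log2 change -2.47 ± 0.44, limma adjusted p = 0.0133), from an intensity of 1851 ± 942 to 325 ± 188 (SD, n = 3). Without WT replicate 1, the brightest WT array for Fasn, the change was -2.09 and no longer called (limma adjusted p = 0.0600, range 0.00727 to 0.0600). The promoter window of Fasn is shown because it holds 3 copies of the box CCAAT, read on either strand, which binds the factor NF-Y, a known partner of SREBP. RefSeq gives it on build GRCm38.p6, from 250 bases before to 50 bases after the start site. Capitals mark matches to CCAAT or its complement ATTGG, at positions -90, -62 and -59 from the start site, of which the last pair overlap.

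Fasn promoter, chr11:120824498-120824797, minus strand: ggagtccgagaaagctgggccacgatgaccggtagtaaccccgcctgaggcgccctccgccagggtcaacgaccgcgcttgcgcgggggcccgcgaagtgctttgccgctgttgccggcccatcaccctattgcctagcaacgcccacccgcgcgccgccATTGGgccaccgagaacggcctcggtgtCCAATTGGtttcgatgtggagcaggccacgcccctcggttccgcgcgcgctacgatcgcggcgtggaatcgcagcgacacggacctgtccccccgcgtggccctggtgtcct

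Palmitate is lengthened to stearate by the elongase ELOVL6. Elovl6 levels were 10.08, 9.21 and 9.72 in WT and 7.26, 5.70 and 8.41 in SRSF3HKO. All knockout arrays were below all WT arrays, yet they differed among themselves by more than any WT pair did, with replicate 2 close to the detection floor. Elovl6 fell 5.83-fold (log2 change -2.54 ± 0.60, limma adjusted p = 0.0329). The change was -1.83 without SRSF3HKO replicate 2 and -3.19 without replicate 3, called both times. Removing WT replicate 1, 2 or 3 ended the call (limma adjusted p = 0.127, 0.0973 and 0.104), as did the mean or median polish over probe sets (0.0532 and 0.0590) and the Y-linked covariate (0.0705), while the direction stayed the same and the lowest adjusted p was 0.0104.

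Stearoyl-CoA desaturase, encoded by Scd1, places the double bond that makes oleate. Scd1 levels were 12.82, 12.58 and 12.83 in WT and 10.71, 10.55 and 11.78 in SRSF3HKO. The WT arrays agreed closely (SD 0.14), whereas the knockout arrays did not (SD 0.67), since replicate 3 stood above the other two. The intensity went from 6845 ± 656 to 2212 ± 1118 (SD, n = 3), a 3.31-fold fall (log2 change -1.73 ± 0.31, limma adjusted p = 0.0135). Leaving out WT replicate 1, 2 or 3 ended the call (limma adjusted p = 0.0740, 0.0660 and 0.0588) with changes of -1.69, -1.81 and -1.68. It was called in the other 15 settings, the lowest adjusted p being 0.00155.

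Thrsp codes for Spot 14, a small protein induced by thyroid hormone and feeding that promotes lipogenesis. Its levels were 11.56, 10.49 and 11.66 in WT and 6.95, 4.97 and 10.71 in SRSF3HKO. SRSF3HKO replicate 3 lay within the WT range, replicate 1 was more than 3 log2 units below the lowest WT array, and replicate 2 was under the detection floor. On the linear scale the knockout arrays read 108, 15.4 and 1662, against 3008, 1420 and 3221 in WT. Thrsp had the largest mean change of the 9 genes and the widest error (-3.69 ± 1.21), and it was not called (limma adjusted p = 0.0844, 95% interval -6.47 to -0.92). Without SRSF3HKO replicate 3 the change was -5.28 and was called (limma adjusted p = 0.00461), which was the only alternative of 18 to call it, the highest adjusted p being 0.223. Without SRSF3HKO replicate 2, the array under the floor, it was -2.41 (limma adjusted p = 0.116). Its promoter window holds CCAAT boxes at -79 and -52, in capitals.

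Thrsp promoter, chr7:97417501-97417800, minus strand: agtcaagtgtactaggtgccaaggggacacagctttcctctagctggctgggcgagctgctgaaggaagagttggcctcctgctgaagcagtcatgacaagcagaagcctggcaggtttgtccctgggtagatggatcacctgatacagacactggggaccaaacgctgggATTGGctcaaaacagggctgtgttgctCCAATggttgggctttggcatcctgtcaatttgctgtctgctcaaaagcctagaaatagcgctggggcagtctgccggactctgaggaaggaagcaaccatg

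Mlxipl codes for ChREBP, which binds carbohydrate response elements of lipogenic and glycolytic genes once glucose metabolites rise. Its levels were 8.49, 7.67 and 8.36 in WT and 7.36, 7.75 and 7.78 in SRSF3HKO. Knockout replicates 2 and 3 lay just above WT replicate 2, so the groups overlapped. The change was small and not called in any setting (-0.55 ± 0.26, limma adjusted p = 0.212, 95% interval -1.15 to 0.06). RefSeq places start sites of Mlxipl in 2 windows, shown because ChREBP is also made as a shorter isoform from an alternative first exon. They hold the E-box CACGTG (at -98) and the sterol regulatory element TCACNCCAC (at -136), exact letters that no other window of these genes holds. Capitals mark these and, in the upstream window, the complement of CCAAT at -173.

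Mlxipl upstream window, chr5:135089640-135089939, plus strand: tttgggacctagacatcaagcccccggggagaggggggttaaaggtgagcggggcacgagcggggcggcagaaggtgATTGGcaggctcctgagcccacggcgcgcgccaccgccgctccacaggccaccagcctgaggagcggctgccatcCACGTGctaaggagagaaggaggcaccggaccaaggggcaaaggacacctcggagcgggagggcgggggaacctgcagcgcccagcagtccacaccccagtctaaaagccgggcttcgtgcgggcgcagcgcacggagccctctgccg
Mlxipl downstream window, chr5:135106641-135106940, plus strand: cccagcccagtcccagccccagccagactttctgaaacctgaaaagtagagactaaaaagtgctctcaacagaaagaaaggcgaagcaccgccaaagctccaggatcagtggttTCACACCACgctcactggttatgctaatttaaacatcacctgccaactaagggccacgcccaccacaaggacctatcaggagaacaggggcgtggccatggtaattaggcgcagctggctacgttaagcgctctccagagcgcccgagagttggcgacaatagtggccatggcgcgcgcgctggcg

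Promoter windows of 300 bases were found in the RefSeq table for 9 of the 10 genes, 11 windows in all. Scd1 had none. The windows of Acaca, Acacb and Fasn, and 1 window each of Me1 and Mlxipl, lie inside the RefSeq bounds of the gene. The outer starts of Acaca, Acacb and Fasn were therefore not searched. Motifs were searched on both strands and are given beside their share of 32851 windows of the same length. CCAAT occurred in 7 of the 11 windows, those of 7 genes, and in 37.4% of all windows. The GC box GGGCGG occurred in 4 of 11 and in 35.7% of all. The sterol regulatory element occurred in 1 of 11 and in 1.24% of all, the E-box in 1 of 11 and in 7.15%. The carbohydrate response element in its exact form, a pair of E-boxes 5 bases apart, was in none of the 32851 windows. A match is a description of the letters and no evidence of binding. Variant forms of the motifs were not searched, so a window without a match may hold one.

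The drop was uneven across the knockout arrays. Relative to the WT mean, the median over the 9 genes was -2.03, -2.12 and -1.11 in SRSF3HKO replicates 1, 2 and 3, and 0.41, -0.46 and 0.05 in the WT arrays. Over all genes tested the same medians were 0.11, 0.07 and 0.04 in SRSF3HKO and 0.05, -0.10 and 0.05 in WT. SRSF3HKO replicate 3 was the knockout array nearest to the WT mean for 7 of the 9 genes, Acacb and Me1 being the exceptions, and for 37.3% of all genes tested. Among the WT arrays, replicate 2 was the lowest for all 9 lipogenic genes (57.2% of all genes) and replicate 1 the highest for 7 (40.7% of all genes).

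Arrays with signal from the Y chromosome stood in both groups. The Y-linked gene Eif2s3y had levels of 8.62 and 8.36 in WT replicates 1 and 2 and 8.99 in SRSF3HKO replicate 3, and 4.16 to 4.18, below the floor, on the other arrays. Within the arrays with this signal the changes were -1.97 for Acly, -1.71 for Fasn, -1.23 for Elovl6, -0.92 for Scd1, -1.04 for Me1, -1.35 for Acacb, -0.33 for Acaca, -0.31 for Thrsp and -0.30 for Mlxipl. Within the arrays without it they were -1.65, -2.73, -3.24, -2.20, -1.18, -1.21, -0.78, -5.70 and -0.81 in the same order. All 9 genes were thus lower in the knockout within both subsets, each of which has a single array in 1 genotype and so allows no test. Acly, Acacb and Me1 differed about as much in either subset, whereas Thrsp, Elovl6, Scd1, Fasn, Acaca and Mlxipl differed more in the arrays without Y-linked signal. Since a single knockout array carried that signal, its genotype effect and that animal cannot be told apart. With this signal as a covariate, 3 of the 9 genes were called, namely Acly, Fasn and Scd1.

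**Figure D3:**
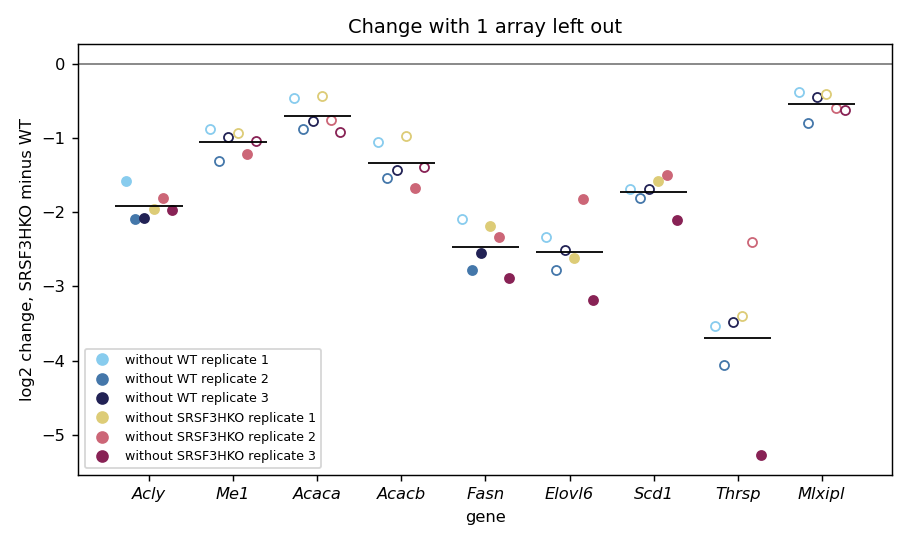
Log2 change of each gene with 1 array left out (points, filled where the adjusted p was under 0.05) beside the change on all 6 arrays (lines). Every point lies below 0, Acly was called each time, and Thrsp reached -5.28 without SRSF3HKO replicate 3.

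The lower signal was seen in most probe sets of these genes taken singly. All 269 probe sets of the 9 genes were tested, since their means over the 6 arrays lay above the probe set floor of 5.63, although 23 fell below it on 1 or more arrays and 6 in their SRSF3HKO mean. Of the 269, 267 had a negative change, against 45.5% of the 157764 probe sets tested in the series. The call of lower signal was made for 124 of 269 (46.1%, against 4.32% of all probe sets) and the call of higher signal for none (4.73% of all). Probe sets of a gene read the same transcripts, so they are not replicates. Fasn had 48 of 50 probe sets called lower, Acly 26 of 28, Scd1 10 of 11, Elovl6 7 of 9 and Me1 13 of 19. Acacb, not called as a gene, had 17 of 54 called, and 40 of its 54 were lower without overlap between the groups (13.5% of all probe sets). For Acaca no probe set of 62 was called, though all 62 had negative changes, from -0.28 to -1.12. Thrsp had 1 of 5 called and Mlxipl 2 of 31. The count of called probe sets fell from 124 to 32, 73 and 58 without WT replicates 1, 2 and 3, to 81 with the Y-linked covariate, and was 88 to 153 without a single knockout array.

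**Figure D4:**
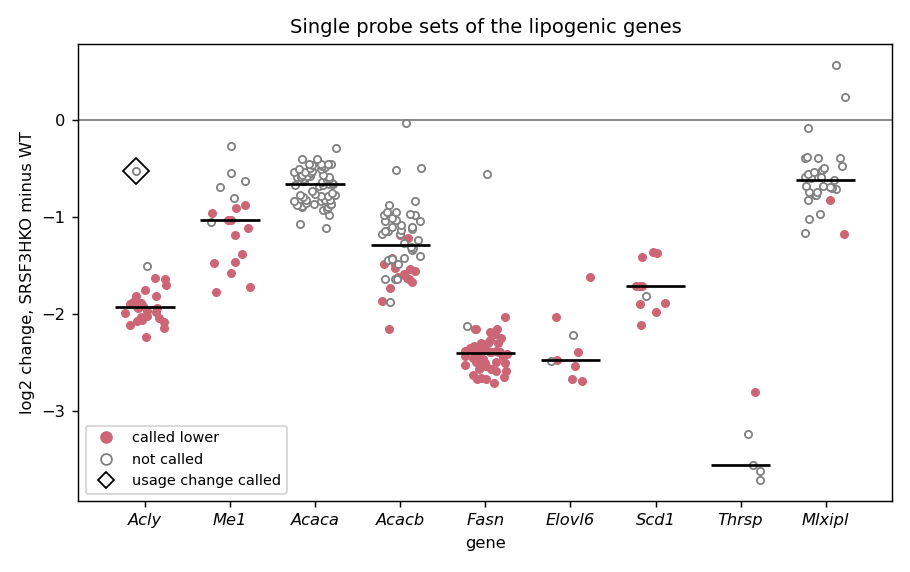
Log2 change of each of the 269 probe sets, grouped by gene, with the gene's median as a line; filled points were called lower and the diamond marks the probe set of Acly that diffSplice called, whose knockout signal lay below the floor. Probe sets of Fasn cluster near the median of -2.41 with a single outlying one at -0.55, and the 2 positive values belong to Mlxipl.

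Because SRSF3 is a splicing factor, each probe set was also compared with the rest of its gene by limma's diffSplice, which gives a usage change. Of 269 probe sets 1 was called, against 0.662% of the 142800 tested, and no usage change can be read from it because its knockout signal was at background. It was probe set 5575501 of Acly, whose fitted levels differed by -0.52 between the groups while the gene's median probe set differed by -1.93 (usage change 1.40, diffSplice adjusted p = 0.0240). Its levels were 6.51, 5.68 and 5.56 on the WT arrays and 5.20, 5.48 and 5.50 on the SRSF3HKO arrays. WT replicate 3 and all knockout arrays thus lay below the probe set floor, where signal cannot be told from background. Neither difference can therefore be read as a change of the transcript. At gene level the Simes test of Acly did not pass (adjusted p = 0.0508), and 5.81% of genes passed. The call of the probe set ended with each of SRSF3HKO replicates 1 and 2 left out (adjusted p = 0.0932 and 0.111), without SRSF3HKO replicate 3 (0.176) and without WT replicate 2 or 3 (0.113 and 0.119). It was not tested without WT replicate 1 or with the stricter filter, where its mean fell below the limit. A pseudocount of 1, array weights, the Y-linked covariate and the per-array splicing index also ended it (0.0912, 0.0618, 0.0715 and 0.264), and the lowest adjusted p was 0.00371, with a pseudocount of 64.

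The most divergent probe set of Mlxipl, 4328692, had higher signal in the knockout while the gene's median probe set had lower signal. Its intensities were 212, 121 and 185 in WT and 280, 240 and 257 in SRSF3HKO, with no overlap. Its usage change of 1.20 did not pass (diffSplice adjusted p = 0.0762), with adjusted p from 0.0333 to 0.368 over the alternatives and calls in 4 of them. In Fasn, probe set 5214679 changed by -0.55, with intensities of 455, 308 and 343 on the WT arrays and 229, 239 and 262 on the SRSF3HKO arrays (usage change 1.87, diffSplice adjusted p = 0.182). It was called without SRSF3HKO replicate 3 (adjusted p = 0.0107). In Acacb the bright probe set 5497825 overlapped between the groups, at levels of 11.31, 11.16 and 11.38 on the WT arrays and 10.69, 11.30 and 11.78 on the SRSF3HKO arrays (usage change 1.28, diffSplice adjusted p = 0.417). The probe sets with the lowest p in Me1, Acaca, Scd1, Elovl6 and Thrsp did not pass either (adjusted p = 0.378 for Me1 and 1 after rounding for the other 4). Positions of probe sets within the genes were not used here.

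Genes at neighbouring steps were followed through 7 lists that together hold 84 genes, of which 74 were tested. Among these 15 were called lower (20.3%) and 5 higher (6.76%), beside 5.03% and 6.85% of all genes tested, and their median change was -0.37. The lists were chosen with earlier results of these data known, so these shares are a description and no test. Leaving out WT replicates 1, 2 or 3 gave 6, 6 and 9 calls in place of 20, the Y-linked covariate gave 11, and 31 were called without SRSF3HKO replicate 2. Of the 20 genes, 6 were called in every alternative that tested them, namely Aacs, Fads1, Elovl5, Elovl7, Acsl1 and Pklr, and all 20 kept their direction.

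In the list of citrate and acetyl-CoA supply, 4 of 9 tested genes fell and 1 rose (median 0.04). Aacs, which activates acetoacetate for lipid synthesis in the cytosol, fell most (log2 change -2.72 ± 0.30, limma adjusted p = 0.00226). Aco1, a cytosolic aconitase, and Slc25a1, the carrier that exports citrate from mitochondria, fell by 0.96 and 0.82 on the log2 scale. Pdk4, a kinase that shuts off pyruvate oxidation, rose by 2.42 ± 0.55, and by 1.70 without SRSF3HKO replicate 2. These last 3 calls ended when single WT arrays were left out, with adjusted p up to 0.105, 0.121 and 0.128 by limma. They held in 13, 13 and 14 of the 18 alternatives. In the list of NADPH supply, Idh1, the cytosolic isocitrate dehydrogenase, was the 1 of 7 to fall (-1.43 ± 0.32, limma adjusted p = 0.0282), from 12.25, 11.94 and 12.25 to 11.10, 9.93 and 11.13. That call was lost with WT replicate 1, 2 or 3 left out (limma adjusted p = 0.116, 0.0957 and 0.101), and it held in 14 of the 18 alternatives. None of the 6 other tested genes of the list, enzymes of NADPH supply, passed the test.

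The list of malonyl-CoA control and AMPK had 2 of 11 genes called, both higher (median -0.27). They were Prkag1 (1.12 ± 0.18) and Prkab2 (1.24 ± 0.22), regulatory subunits of AMPK, the kinase known to inhibit acetyl-CoA carboxylase (limma adjusted p = 0.00908 and 0.0125). Prkag1 levels were 9.23, 9.15 and 9.17 in WT and 10.14, 10.48 and 10.30 in SRSF3HKO, well apart. Both calls ended without WT replicate 1 or 2, with Prkag1 at 0.0558 and 0.0546 and Prkab2 at 0.0709 and 0.0667. The other regulatory subunit genes of the list were not called. Prkag2 had a lower mean (-0.90 ± 0.26) and Prkab1 a higher one (0.47 ± 0.21), with limma adjusted p = 0.0626 and 0.187. Neither catalytic subunit gene of AMPK, Prkaa1 (-0.12) or Prkaa2 (-0.64), was called.

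Among other desaturases and elongation enzymes 3 of 13 fell and 1 rose (median -0.58). The desaturase gene Fads1 (-1.66 ± 0.19) and the elongase gene Elovl5 (-1.56 ± 0.22), which serve polyunsaturated fatty acids, fell with tight errors. Elovl3, another elongase gene, was at least 16.9-fold lower by group means, with levels of 11.05, 10.93 and 6.30 in WT. The last of these was on the WT array without Y-linked signal. Among arrays with that signal the change of Elovl3 was -6.55, and among those without it -2.18, both limited by the floor. The bound was 9.61, 10.02 and 49.9 without WT replicate 1, 2 and 3, and Elovl3 was no longer called without the first or second of these (limma adjusted p = 0.0945 and 0.106). Elovl7 went the other way and was at least 5.79-fold higher, with WT levels below the floor. Both bounds are set by the detection floor.

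For fatty acid activation and esterification 3 of 11 fell and 1 rose (median -0.48). The acyl-CoA synthetase genes Acsl1 (-1.53 ± 0.22) and Acsl5 (-0.99 ± 0.24) and the acyltransferase gene Agpat2 (-1.48 ± 0.29) fell, whereas Lpin2, which codes for a phosphatidate phosphatase, rose by 1.51 ± 0.36. The calls of Acsl5, Agpat2 and Lpin2 ended without WT replicate 1, 2 or 3, with limma adjusted p up to 0.146, 0.0878 and 0.138. They held in 12, 15 and 12 of the 18 alternatives. Among other glucose-responsive genes 1 of 7 was called (median -0.75). This was Pklr, the liver pyruvate kinase gene and a known ChREBP target, which fell by 2.70 ± 0.30 (limma adjusted p = 0.00226) from 11.16, 10.57 and 10.91 to 7.83, 7.91 and 8.80.

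Among the transcription regulators of the pathway, 3 of 16 tested genes fell and none rose (median -0.18). Insig1, which retains SREBP in the endoplasmic reticulum and is itself a known SREBP target, fell by 1.77 ± 0.43 on the log2 scale, the thyroid hormone receptor gene Thrb by 1.00 ± 0.19 and Rxra by 0.77 ± 0.19 (limma adjusted p = 0.0362, 0.0159 and 0.0349). These calls also ended without WT replicate 1, 2 or 3, with limma adjusted p up to 0.127, 0.0789 and 0.140. Over the 18 alternatives Insig1 was called in 12, Thrb in 15 and Rxra in 11. Srebf1, which codes for SREBP-1, had levels of 10.37, 9.18 and 9.42 on the WT arrays and 8.36, 7.81 and 9.08 on the SRSF3HKO arrays. The groups were separate by less than the spread within either, and the change of -1.24 ± 0.40 was not called (limma adjusted p = 0.0796). Scap, the SREBP escort (-0.77 ± 0.23), and Nr1h3, the LXR alpha gene (-0.82 ± 0.30), had lower means without a call (limma adjusted p = 0.0646 and 0.113). Mlx, the dimer partner of ChREBP, had a higher mean (0.77 ± 0.22, limma adjusted p = 0.0558), as did Insig2 (0.37 ± 0.27). Ppargc1b, a coactivator of SREBP, was near 0 (0.06 ± 0.19), its sign changing with the setting.

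**Figure D5:**
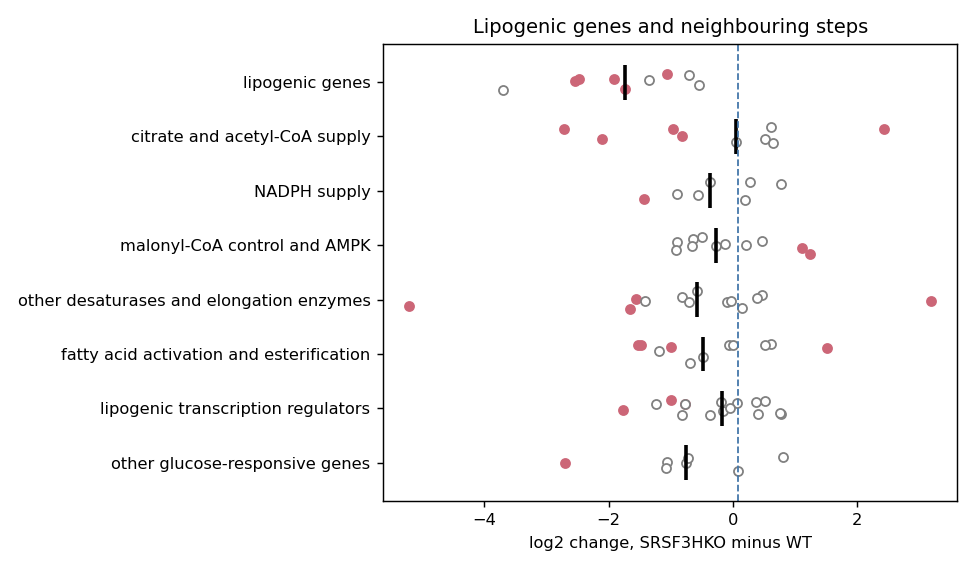
Log2 change of each tested gene of the lipogenic genes and of the 7 neighbouring lists, filled where the adjusted p was under 0.05, with list medians as black bars and the median of all genes (0.08) as a dashed line. The lipogenic genes have a median of -1.73, and the medians of the other lists lie between -0.75 and 0.04.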

How the data were processed

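Liver RNA was measured on 3 SRSF3HKO and 3 WT exon arrays. The authors' summary of the core exons used PLIER and Affymetrix Expression Console, per the submitters' processing notes. The deposited table holds intensities on a linear scale. Versions, background step and build are not given in the sources used here. Genotype came from the labels, and replicate numbers follow sample order. Intensities were transformed as log2(value + 16) with no further normalization. Probe sets were named through the annotation supplied with the series: 208397 had 1 symbol, 3965 several and 17219 none, and only the first kind gave gene levels (medians). Symbols were updated through RefSeq synonyms (2124 of 16299 distinct symbols). The floors, 5.35 for genes and 5.63 for probe sets, are the 90th percentile over 1046 receptor genes of smell, taste and pheromone sensing.

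Genotypes were compared by limma 3.58.1 (trend, Benjamini-Hochberg over all features tested) in R 4.3.3, and exon usage with diffSplice in genes of at least 3 tested probe sets. Folds of genes with a group mean under the floor are bounds computed from the floor. The pipeline was tested on simulated data. The genes, lists and named-gene rule (all members, fixed regulators, up to 4 called genes per list, and the probe set of each gene with the lowest usage p) were chosen with earlier results of these data known. The alternatives tried were quantile normalization, centring on the median, pseudocounts of 1 and 64, other summaries and filters, no trend, array weights, a Y-linked covariate, the splicing index and leaving out each array. Figures were drawn with matplotlib 3.10.9 in Python 3.11.15.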

Additional observations from a re-analysis of the deposited data

How the results depend on the processing

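All 9 lipogenic genes kept a lower mean in SRSF3HKO under each of the 18 alternatives tried, 162 values in all, of which 142 stayed on their side of the threshold, 16 lost a call and 4 gained one. Leaving out 1 array gave 1 to 6 lipogenic genes called, 32 to 153 of their probe sets, 0 to 1 usage change, 6 to 31 genes of the neighbouring lists and 244 to 2155 genes in all. With a covariate for Y-linked signal these numbers were 3, 81, 0, 11 and 618, against 5, 124, 1, 20 and 1391 on all 6 arrays without it. Array weights gave 33 list genes and 2157 genes in all. The usage count was 0 with a pseudocount of 1 and with the splicing index, and 2 with a pseudocount of 64 and with quantile normalization, where probe set 4328692 of Mlxipl joined that of Acly, which lay at background in the knockout. Among all called genes the share called higher was 57.7%, and 51.2% with median centring, 51.0% with the Y-linked covariate, 46.7%, 38.7% and 51.2% without WT replicates 1, 2 and 3, and 48.4%, 64.2% and 50.6% without SRSF3HKO replicates 1, 2 and 3. The other settings gave 52.5% to 59.9%. Some settings leave fewer arrays or degrees of freedom. The causes of these shifts were not tested. No paired analysis was possible because the labels give the groups no shared replicate numbers. With 3 arrays per group, signal over background limits what can be read of Thrsp in SRSF3HKO replicate 2.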

Other observations

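The 19 probe sets that the annotation lists under both Acss2, the gene of cytosolic acetyl-CoA synthetase, and Myh7b, a myosin gene, cannot be assigned to either and entered no count above. Their median intensities were 2242, 1009 and 1616 on the WT arrays and 122, 299.9 and 168 on the SRSF3HKO arrays. All 19 were lower in SRSF3HKO without overlap (13.5% of all probe sets tested), with changes from -1.20 to -3.43 and a median of -2.79. All 19 were called lower (limma adjusted p from 0.00101 to 0.0440), against 4.32% of all probe sets tested. They are not replicates of each other. SRSF3HKO replicate 3, the knockout array nearest to WT for most lipogenic genes, was not the nearest here.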
